A study of Mus musculus with 20 samples.

Results

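The transcripts of p53 and of the genes it is known to activate were examined in T lineage acute lymphoblastic leukemias (T-ALLs) of the mouse. The group holds 34 of the 39017 genes in the table, namely *Trp53*, which encodes p53, and 33 genes known as its targets or partners, and is a list of symbols whose rule uses no measured value. It was chosen with earlier results of these data known. All 34 were found by symbol, and 25 of them had a mean of at least 1 FPKM (expected counts per kb of exon, scaled to the total of the library) and were tested. The leukemias were induced by insertional mutagenesis (IM), in which the retrovirus MOL4070LTR was injected into newborn C57Bl/6 x 129Sv/Jae F1 pups and integrates near growth-promoting genes. The labels do not give the *Trp53* genotype of each leukemia. Each leukemia is 1 tumor, which was transplanted into irradiated wild-type F1 mice, and RNA was extracted from their bone marrow, so recipient cells can be present. The 9 leukemias compared were 20M, 2M, 73A, 73M, 78A, JW81, 5C, 8633 and JW14, each with a column named VEH and a column named DEX. The arm is read from the column name only, since the labels give no treatment and the sources used here do not explain these letters. A further leukemia, 4638, also has a pair of columns and is described by its values.

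p53 is a transcription factor that is held at a low level by the ubiquitin ligase MDM2 and its relative MDM4, and that accumulates when ATM or ATR signals DNA damage, or when p19ARF, a product of *Cdkn2a*, binds MDM2. It then switches on genes that halt the cell cycle, start apoptosis and repair DNA, and it also switches on *Mdm2*, which closes a feedback loop. Much of the control of p53 acts on the protein, which is not measured here. In T-ALL the *Cdkn2a* locus is often deleted, and thymocytes are among the cells that readily undergo p53-dependent apoptosis.

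p53 binds pairs of a 10-base half-site, and the half-site consensus was searched on both strands in the 250 bases before each transcription start listed by RefSeq (GRCm38.p6). Of the 34 genes, 27 had a start in that table, with 37 windows in all. The consensus was found in 7 of the 27 genes (25.9%), and in 8.20% of the 27025 genes of the table, or 18.9% of the 37 windows against 7.13% of 32851. The core CATG alone, a part of one form of the half-site, was in 27.0% of the members' windows and in 53.9% of all. The 8 matches are shown because they are the p53 half-site letters in the promoters of the genes described below. Each is read along the strand of the gene, with the half-site in capitals and up to 15 bases on either side.
*Aen* (chr7:78895922-78895961, plus strand): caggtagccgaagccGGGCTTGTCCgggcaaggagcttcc
*Ccng1* (chr11:40755447-40755486, minus strand): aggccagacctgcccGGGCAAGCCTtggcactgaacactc
*Ei24* (chr9:36797335-36797359, minus strand): tgccccgtgcggcccGGGCATGCCC
*Mdm2* (chr10:117710920-117710959, minus strand): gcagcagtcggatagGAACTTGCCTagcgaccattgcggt
*Polk* (chr13:96519394-96519433, minus strand): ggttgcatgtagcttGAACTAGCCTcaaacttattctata
*Rps27l*, farther from the start (chr9:66946188-66946227, plus strand): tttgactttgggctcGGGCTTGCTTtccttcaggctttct
*Rps27l*, nearer to the start (chr9:66946291-66946330, plus strand): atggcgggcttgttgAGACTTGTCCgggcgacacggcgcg
*Trp53* (chr11:69580269-69580308, plus strand): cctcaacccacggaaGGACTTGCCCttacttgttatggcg
A match is a description of the letters in these windows and not evidence of binding. The genes *Rrm2b*, *Perp*, *Tnfrsf10b*, *Ddb2*, *Zmat3*, *Xpc* and *Trp53inp1* had no entry.

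The 18 libraries of the 9 leukemias held 8226528 to 201222288 expected counts (median 24451898). Ribosomal RNA genes were at 21.6 to 64.05 counts per M counts in 5 libraries, which were DEX columns in 20M, 73M, JW14 and JW81 and the VEH column in 5C. They were at 0.0656 or less in all others, and the changes called below are given with and without them. A list of 12 T lineage genes was at a mean log2(FPKM + 1) of 5.07 ± 0.55 (SD, n = 9), with 9 B lineage genes at 0.30 ± 0.33, 11 myeloid genes at 1.85 ± 0.65 and 8 erythroid genes at 1.46 ± 1.18. The B lineage and erythroid lists were highest in 73M (1.07 and 3.97) and the myeloid list in 73A (2.92), and no marker of any list was at 0 in every library. In 4638 the T lineage list was at 3.54, lower than in any of the 9, and the B lineage, myeloid and erythroid lists were at 1.88, 4.33 and 4.73, higher than in any of them. In bone marrow, fewer cells of a type and less RNA per cell cannot be told apart.

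The first comparison was among the leukemias. *Trp53* was transcribed in all of them, with 1.51-fold between the highest and the lowest, whereas single targets were nearly absent from single leukemias. *Fas* was almost undetected in JW81, *Ei24* was low in 2M and JW81, *Phlda3* and *Zmat3* were low in 8633 and JW14, and *Perp* was present in 8633. Of the 25 members tested, 22 differed among the 9 leukemias beyond the spread between the libraries of a leukemia (edgeR quasi-likelihood test, adjusted p under 0.05), or 88% against 82.5% of all 11339 genes tested. The 3 others were *Sesn2* (adjusted p = 0.0531), *Apaf1* (0.0572) and *Polk* (0.140). The test takes all 9 leukemias together, so an adjusted p among leukemias does not test a named leukemia or set of leukemias against the rest. Those named here and below were picked from the values. The highest leukemia was more than 4 times the lowest for 8 of the 25 members (32%), against 23.9% of all genes tested, and the median ratio of highest to lowest was 2.69, against 2.18. Without the 5 libraries with ribosomal RNA the count of 22 became 21, or 84% against 76.3% of all genes.

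**Figure D1:**
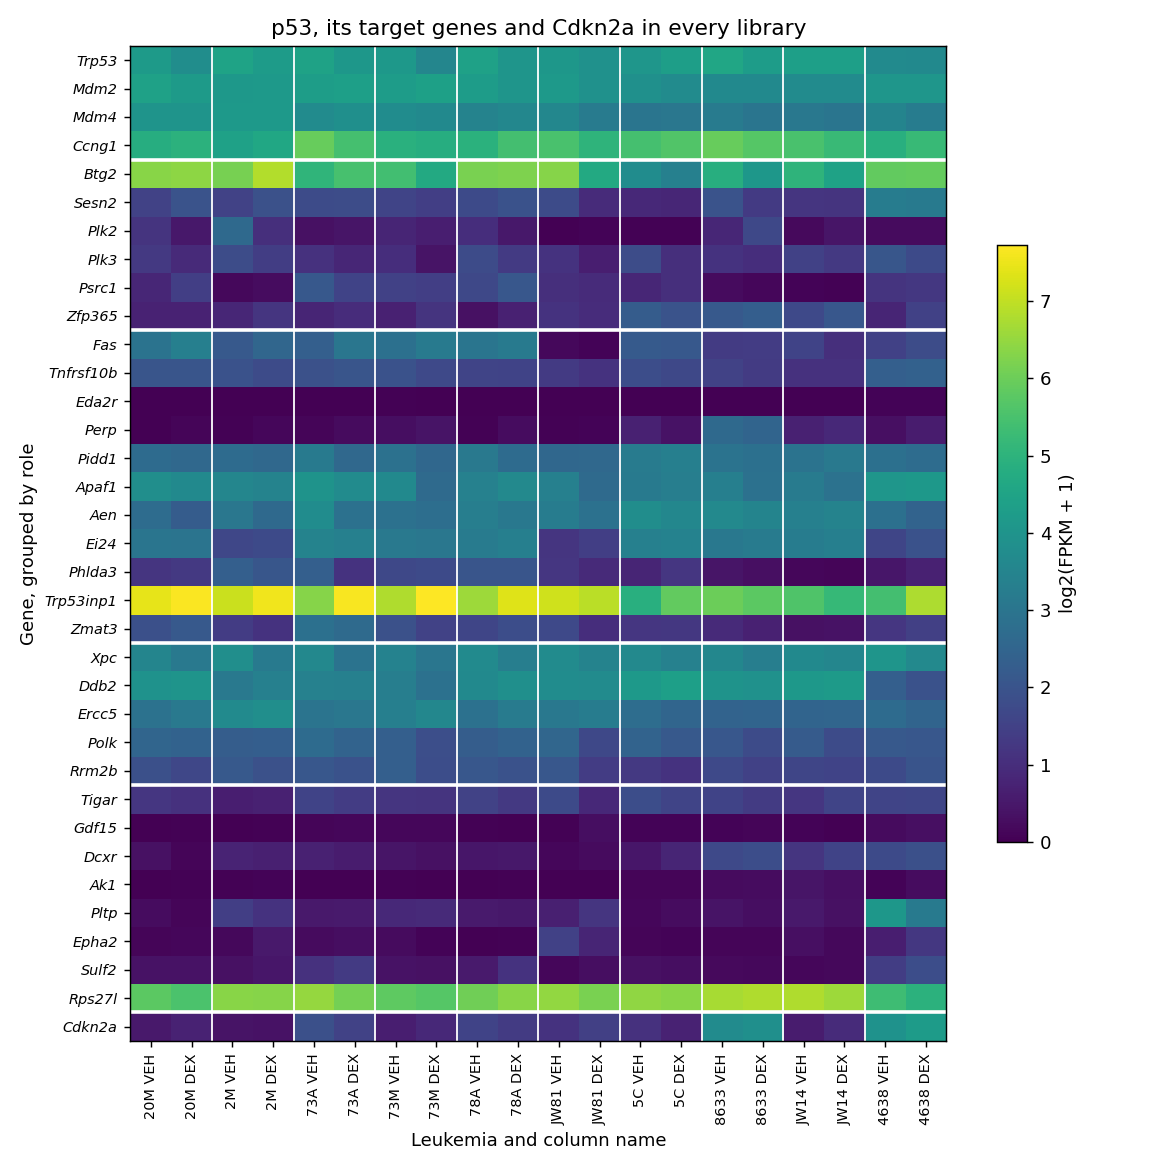
Level of each of the 34 genes and of *Cdkn2a* in log2(FPKM + 1) (color), with 1 row per gene and 1 column per library, and white lines between the role groups and between leukemias. *Trp53* is present in every library, *Trp53inp1* and *Rps27l* are among the brightest rows, *Fas* is dark in JW81, and *Cdkn2a* is bright in 8633 and 4638 only.

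Among the genes of the core loop, *Trp53* (ENSMUSG00000059552, GRCm38 chromosome 11, 69580359 to 69591873) had a mean of 17.5 ± 2.37 FPKM (SD, n = 9 leukemias). Its VEH libraries were at 15.5 to 22.8 FPKM (median 19.5) and its DEX libraries at 10.8 to 19.7 (median 16.0). No library was without the transcript, and the lowest leukemia, 73M (13.6), and the highest, 8633 (20.5), were 1.51-fold apart. The 4638 libraries were at 11.9 (VEH) and 11.8 (DEX) FPKM.

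*Mdm2* (ENSMUSG00000020184, chromosome 10, 117688875 to 117710758), both a target and the main inhibitor of p53, was at 15.9 ± 3.02 FPKM (SD, n = 9). Its VEH libraries were at 11.7 to 20.5 FPKM (median 16.8) and its DEX libraries at 11.6 to 19.8 (median 15.2). The libraries of 5C, 8633 and JW14 were at 11.6 to 13.6 FPKM, below the 14.1 to 20.5 of the 6 others (edgeR adjusted p among leukemias 0.000794). This set of leukemias was picked from the values. The share of all genes that set it apart was not counted, so nothing is read from the split. *Trp53* was highest in the leukemia in which *Mdm2* was lowest, 8633.

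*Mdm4* (ENSMUSG00000054387, chromosome 1, 132959484 to 133030561), the other inhibitor of the loop, varied more, at 11.0 ± 3.51 FPKM (SD, n = 9). Its VEH libraries were at 6.95 to 17.04 FPKM (median 11.0) and its DEX libraries at 6.96 to 17.01 (median 10.9). It was at 17.04 and 17.01 in the VEH and DEX libraries of 2M and at 15.04 and 14.8 in those of 20M. In 5C, 8633 and JW14 it was at 6.95 to 8.34 FPKM, and JW81 came next with 8.35 in its DEX library and 11.0 in its VEH library, so the lower leukemias were not set apart from it (adjusted p among leukemias 1.11e-05). *Ccng1*, which encodes cyclin G1, a partner of a phosphatase that acts on MDM2, was at 38.4 ± 11.2 FPKM, from 21.8 in 2M to 55.5 in 8633.

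In the group of growth arrest and stress genes, 4 of 5 tested members differed among leukemias (80%, against 82.5% of all genes), and 3 of 5 were more than 4-fold apart (60%, against 23.9%). *Btg2*, an antiproliferative gene, was at 10.9 FPKM in 5C and 91.6 in 2M. *Psrc1*, a gene of the mitotic spindle, was at 0.0361 to 0.192 FPKM in the 6 libraries of JW14, 8633 and 2M and at 0.763 to 3.40 in the other 12. *Zfp365*, a gene of genome stability, was at 2.27 to 3.94 FPKM in the 6 libraries of 5C, 8633 and JW14 and at 0.280 to 1.31 in the others. The splits of *Psrc1* and *Zfp365* were picked from the values, and the share of all genes with such a split was not counted. The stress kinase *Plk3* ranged from 0.657 in 73M to 2.07 in 2M, and *Sesn2*, a stress-induced inhibitor of mTORC1, from 0.826 in 5C to 2.59 in 78A. *Plk2*, a related kinase, was not tested, with a mean of 0.834 FPKM, and was at 0 in the VEH library of JW81 and at 5.30 in that of 2M.

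Of the apoptosis genes, 8 of 9 tested differed among leukemias (88.9%, against 82.5% of all genes), and 5 of 9 were more than 4-fold apart (55.6%, against 23.9%). *Fas* (ENSMUSG00000024778, chromosome 19, 34290666 to 34327772) encodes a death receptor. In JW81 it had 6 counts in the VEH library and 2 in the DEX library, or 0.113 and 0.0468 FPKM. The other 16 libraries were at 1.06 (DEX, JW14) to 9.11 FPKM (DEX, 20M), so JW81 did not overlap any of them (adjusted p among leukemias 2.12e-06). The other death receptor tested, *Tnfrsf10b*, a receptor of TRAIL, was at 1.15 in JW14 to 3.09 in 20M, with JW81 at 1.34.

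*Ei24* (ENSMUSG00000062762, chromosome 9, 36779159 to 36797393), a gene of the endoplasmic reticulum first found as etoposide-induced, fell into separate levels. It was at 2.13 (VEH) and 2.35 (DEX) FPKM in 2M and at 1.31 and 1.69 in JW81, and at 6.82 to 9.87 FPKM in the 14 libraries of the other 7 leukemias (edgeR adjusted p among leukemias 3.44e-08). In 4638 it was at 2.05 and 2.90. The gene shares exonic bases with the opposite-strand gene *Gm26787*, and reads of overlapping genes cannot be told apart where strand is not recorded.

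*Phlda3*, which encodes an inhibitor of AKT, was at 0.102 (VEH) and 0.0780 (DEX) FPKM in JW14 and at 0.367 and 0.253 in 8633. It was at 0.738 to 4.08 in the other 14 libraries. *Zmat3*, an RNA-binding zinc finger gene, was at 0.285 and 0.287 in JW14 and at 0.910 and 0.636 in 8633, and reached 6.20 in the VEH library of 73A. All 4 libraries of 8633 and JW14 were below the 14 others for 3 members, *Phlda3*, *Zmat3* and the repair nuclease gene *Ercc5* (12% of 25, against 7.95% of all genes tested). They were above the 14 others for 1 member, *Rps27l*, a ribosomal protein gene that p53 induces, with 95.5 to 111 FPKM in the 4 libraries (4% of 25, against 7.52%). This pair of leukemias was picked from these values, so nothing is read from either count.

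The remaining tested apoptosis genes were *Trp53inp1*, *Aen*, *Apaf1* and *Pidd1*. *Trp53inp1*, which promotes p53-dependent apoptosis and autophagy, was the most abundant member at 117.4 ± 55.7 FPKM, from 41.05 in JW14 to 189.7 in 20M. The nuclease gene *Aen* was at 4.71 in 20M to 11.8 in 5C. *Apaf1*, the scaffold of the apoptosome, was at 7.38 to 13.5 FPKM, and *Pidd1*, of the PIDDosome, at 5.09 to 8.65. *Perp*, a membrane gene of apoptosis and cell adhesion, was not tested. It was at 5.20 (VEH) and 4.62 (DEX) FPKM in 8633 (301 and 206 counts), and at 0.0130 to 0.872 in the other 16 libraries. *Eda2r*, which encodes a receptor of the same family as *Fas*, was at 0.0236 FPKM or less in the 18 libraries of the 9 leukemias and at 0.0508 (VEH) and 0.0557 (DEX) in 4638.

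**Figure D2:**
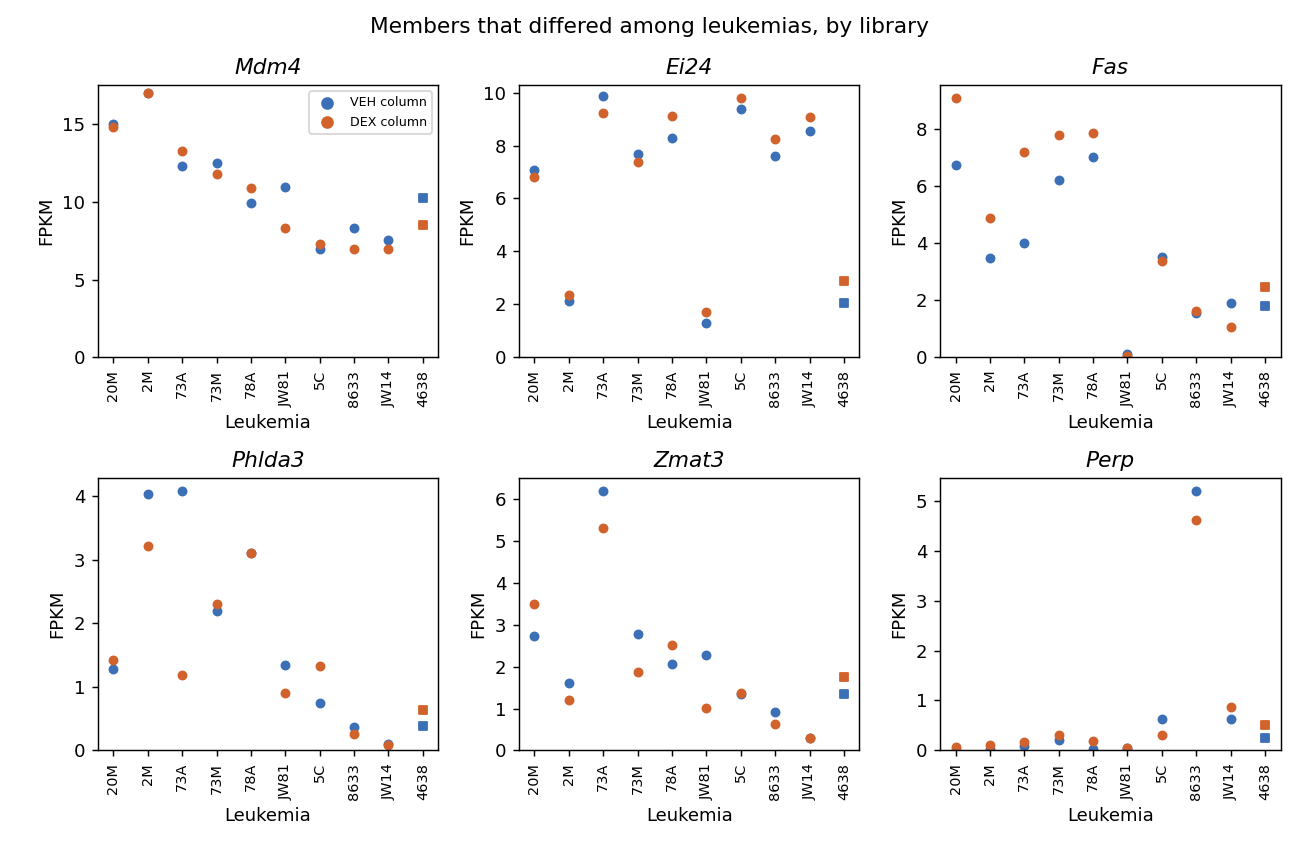
FPKM of 6 members in the VEH (blue) and DEX (orange) library of each leukemia, with 4638 as squares and the vertical axis linear from 0. *Ei24* is low in 2M, JW81 and 4638, *Fas* is near 0 in JW81, and *Perp* is above 4 FPKM in 8633 alone.

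Of the 5 DNA repair genes, 4 differed among leukemias (80%, against 82.5% of all genes), and for none of the 5 was the highest leukemia more than 4 times the lowest (against 23.9%), with a median ratio of 2.40. *Xpc*, which recognizes damage in nucleotide excision repair, was the most even member, at 10.03 ± 0.999 FPKM (SD, n = 9), 1.34-fold from 73M (8.40) to JW14 (11.2). *Ddb2*, a damage sensor of the same pathway, was at 7.56 in 73M to 18.2 in 5C. *Ercc5* was at 4.55 in 8633 to 12.5 in 2M, and its libraries in 5C, 8633 and JW14 (4.53 to 5.73) were below all others (6.39 to 13.04). That split was also picked from the values, without a count over all genes. *Polk*, a translesion polymerase, was at 2.85 to 4.98, and *Rrm2b*, a subunit of ribonucleotide reductase that supplies nucleotides for repair, at 1.30 in 5C to 3.30 in 73M. *Ddb2* overlaps exons of *Acp2* and *Rrm2b* those of *Gm49085* on the opposite strand.

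Of the 8 metabolic, secreted and surface genes, *Rps27l* and *Tigar* were tested. *Tigar*, a phosphatase that limits glycolysis, was at 0.614 in 2M to 2.29 in 5C. The 6 others were under 1 FPKM on average. Of these, *Epha2*, a receptor tyrosine kinase, was at 1.82 (VEH) and 0.758 (DEX) in JW81 and at 0.0161 to 0.44 in the other 16 libraries of the 9 leukemias, with 4638 at 0.562 and 1.37, and *Dcxr*, a xylulose reductase, was at 1.27 to 2.53 in 8633 and JW14 and at 0.0811 to 0.735 in the other 14 libraries. *Gdf15*, a secreted stress factor, did not exceed 0.208 FPKM in the 9 leukemias, and *Ak1*, an adenylate kinase, not 0.368. *Pltp*, a phospholipid transfer protein, reached 1.71 and *Sulf2*, a sulfatase, 1.49 FPKM in them, while 4638 reached 15.9 and 2.55.

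The members were then set against *Cdkn2a* (ENSMUSG00000044303, chromosome 4, 89274471 to 89294653), whose product p19ARF protects p53 from MDM2. The counts are per gene and do not separate p19ARF from p16INK4a. *Cdkn2a* was at 12.4 (VEH) and 13.3 (DEX) FPKM in 8633. In the 8 other leukemias it was at 0.288 (DEX, 2M) to 2.71 FPKM (VEH, 73A), and no library of them overlapped 8633. In 4638 it was at 14.2 and 17.8 FPKM. Since the gap below 8633 was 0.612 of the whole range of the 9 levels, no relation over all 9 is given.

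The leukemias with high *Cdkn2a*, 8633 and 4638, were alike in some genes and apart in others, and those named here were chosen after their values were seen. *Dcxr* was at 2.24 (VEH) and 2.53 (DEX) FPKM in 8633 and at 2.31 and 2.69 in 4638, and *Ercc5* at 4.53 and 4.57 and at 5.51 and 4.63. These levels were not particular to high *Cdkn2a*. JW14, with *Cdkn2a* at 0.520 (VEH) and 0.933 (DEX), had *Ercc5* at 4.62 and 4.68 and *Dcxr* at 1.27 and 1.91. In 5C *Ercc5* was at 5.73 and 4.76. The cell cycle inhibitor *Cdkn1a*, the classical p53 target, was at 0.436 (VEH) and 0.173 (DEX) FPKM in 8633 and at 3.61 and 5.98 in 4638. *Sesn2* was at 2.96 and 1.49 in 8633 and at 8.56 and 8.08 in 4638, where the 9 leukemias reached 2.96. *Ddb2* went the other way, with 14.7 and 14.1 in 8633 and 4.10 and 2.82 in 4638. *Mdm2* was at 11.7 and 11.6 in 8633 and at 15.7 and 15.6 in 4638. The myeloid and erythroid lists of 4638 were at 4.33 and 4.73 and those of 8633 near the lowest of the 9, and the part of other cells in these values was not tested.

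Among the VEH libraries of the 8 leukemias other than 8633, 0 of 25 members had a slope on the level of *Cdkn2a* with an adjusted p under 0.05 (edgeR), and this was also so for all 11338 genes (0.0%). At an unadjusted p under 0.05 there were 0 members, against 82 genes (0.723%). With so few genes below that p, 0 of 25 was the likely outcome for any list, so nothing is read from it. DESeq2 called 0 members and 11 of 11338 genes (0.097%), with 1 member at an unadjusted p under 0.05. The smallest edgeR p of a member was that of *Psrc1* (slope 1.84 per unit of log2(FPKM + 1), SE 0.86, edgeR adjusted p = 0.999954). On simulated counts this fit recovered 58.0% of slopes set at 4-fold per unit of the *Cdkn2a* level in log2(FPKM + 1). The VEH levels ran from 0.404 (2M) to 1.89 (73A), so these slopes exceeded 4-fold from the lowest to the highest leukemia. Smaller relations would often be missed with 8 leukemias.

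As a summary, the mean log2(FPKM + 1) over the 34 members (p53 score) was 2.29 ± 0.12 (SD, n = 9). It was lowest in JW81 (2.12) and JW14 (2.14), followed by 5C (2.19), 8633 (2.28), 73M (2.28), 20M (2.34), 2M (2.37), 78A (2.43) and 73A (2.47). The score of 4638 was 2.39. Of the 9, the leukemia with the most *Cdkn2a*, 8633, was in the middle of the order, and neighbours in the order lay closer to each other than the VEH and DEX libraries of JW81 (2.26 and 1.98). Over the 8 leukemias other than 8633, Pearson's r between score and *Cdkn2a* level was 0.27 and Spearman's rho 0.19. Without the 2 leukemias farthest from the median *Cdkn2a* level, 73A and 78A, r was -0.83 and rho -0.94 over the 6 left, so the sign rests on 73A and 78A. The points share library depth and the share of other cells, and r is given as a description.

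**Figure D3:**
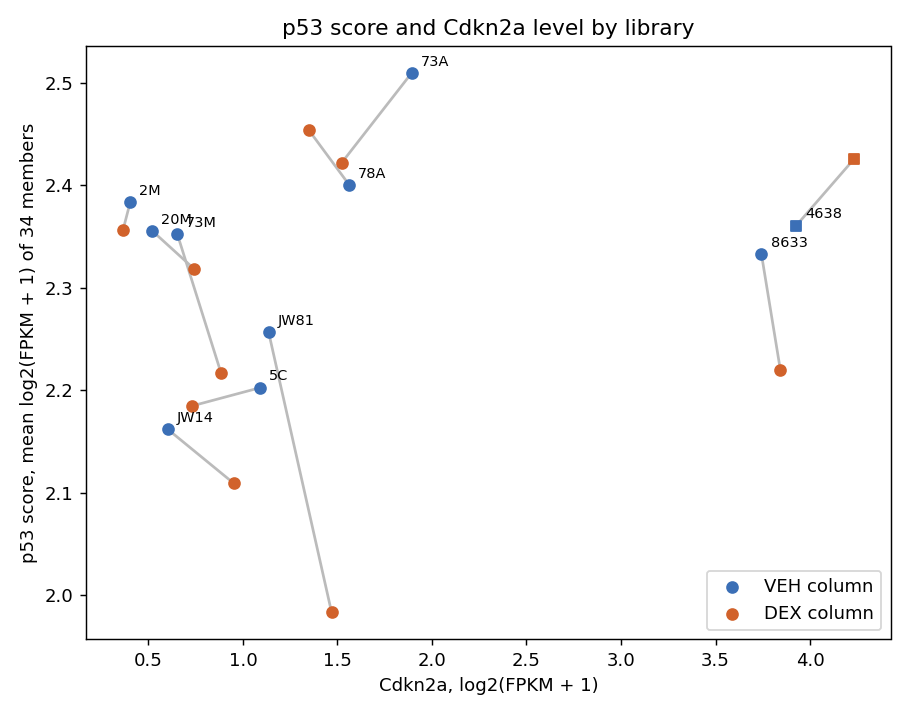
p53 score (mean log2(FPKM + 1) of the 34 members, vertical) against the *Cdkn2a* level (log2(FPKM + 1), horizontal) in the VEH (blue) and DEX (orange) library of each leukemia, joined by a line, with 4638 as squares. The libraries of 8633 and 4638 lie apart on the right, with scores between 2.22 and 2.43, inside the range of the others.

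The second comparison was between the DEX and VEH columns within the leukemias. The transcripts that changed were 3 of 25 tested members, and all 3 were lower in the DEX columns, in 9 of 9 leukemias each. They were *Xpc* and *Rrm2b*, of DNA repair and nucleotide supply, and the stress kinase *Plk3*. No member was higher (0 of 25, against 6.22% of all genes). The 3 members are 12% of 25, and 13.0% of all 11339 genes tested passed the same threshold, 6.79% as lower, so the members' share was near that of all genes. A lower value in 9 of 9 leukemias was found for 4.93% of all genes tested, and a higher value in 9 of 9, found for 0 of 25 members, for 1.77%.

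*Xpc* (ENSMUSG00000030094, chromosome 6, 91489305 to 91515888) was at 9.68 to 13.0 FPKM (median 11.6) in the VEH columns and at 6.73 to 10.8 (median 8.85) in the DEX columns. The groups overlapped between leukemias, but each DEX value was below the VEH value of its leukemia. The change was -0.37 on the log2 scale (SE 0.065, edgeR adjusted p = 0.00627). In the 4 leukemias without a library with ribosomal RNA it was -0.50 (adjusted p = 0.0349).

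*Plk3* (ENSMUSG00000028680, chromosome 4, 117128655 to 117133963) was at 0.995 to 2.47 FPKM (median 1.45) in the VEH columns and at 0.318 to 1.67 (median 1.02) in the DEX columns. It had the largest change of the 3, -0.72 on the log2 scale (SE 0.14, edgeR adjusted p = 0.0103). In the 4 leukemias without ribosomal RNA it was -0.49 and did not pass (adjusted p = 0.114). *Plk3* shares bases with *Tctex1d4* on the opposite strand.

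*Rrm2b* (ENSMUSG00000022292, chromosome 15, 37923952 to 37961318) was at 1.42 to 4.06 FPKM (median 3.25) in the VEH columns and at 1.17 to 2.87 (median 2.15) in the DEX columns. Its change was -0.33 on the log2 scale (SE 0.084, edgeR adjusted p = 0.0256). It was -0.22 in the 4 leukemias without ribosomal RNA (adjusted p = 0.152), and the call was also lost without 20M (-0.35, adjusted p = 0.0517), 2M (-0.33, 0.0582) or 73M (-0.30, 0.0583), with a term for ribosomal RNA libraries (-0.28, 0.108) and with 4638 added (-0.26, 0.0835).

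The DEX minus VEH difference in level of the T lineage list was -0.084 ± 0.075 (SD, n = 9) and was below 0 in 8 of 9 leukemias, with 8 of its 12 genes lower on average. The B lineage, myeloid and erythroid lists changed by -0.15 ± 0.33, -0.19 ± 0.33 and -0.33 ± 1.03 and were lower in 5, 6 and 4 of 9 leukemias, with 9 of 9, 8 of 11 and 8 of 8 genes lower on average. The lowest differences were those of 73M, at -0.99, -0.69 and -2.69, and without it, a choice made after seeing the data, the means were -0.04, -0.13 and -0.03. In the 4 leukemias without ribosomal RNA the T lineage, B lineage, myeloid and erythroid lists changed by -0.086, -0.071, 0.023 and -0.31. Summed over each list, the VEH and DEX libraries were at 524.8 to 1315 and 548 to 1183 FPKM (T lineage), 0.545 to 29.8 and 0.579 to 5.57 (B lineage), 13.6 to 567.9 and 10.1 to 328 (myeloid), and 1.80 to 768 and 3.71 to 102 (erythroid). Their part in the changes of *Xpc*, *Plk3* and *Rrm2b* was not tested.

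Over the 25 members, 18 had a lower and 7 a higher estimate (72% lower, against 49.1% of all genes tested), and the median log2 change was -0.10, against 0.0039. In the 4 leukemias without ribosomal RNA the split was 13 lower and 12 higher (52% lower, against 48.2% of all genes), with a median of -0.03, against 0.0053. The core genes did not pass the test. *Trp53* was lower by an estimate of -0.21 (SE 0.079, edgeR adjusted p = 0.0946), with lower values in 7 of 9 leukemias. It passed without 5C (-0.28, adjusted p = 0.0115), where it was at 15.5 in the VEH and 19.01 in the DEX library, and in the 4 leukemias without ribosomal RNA (-0.30, 0.0483). *Mdm2* was at -0.02 (SE 0.055, adjusted p = 0.795), *Mdm4* at -0.01 (SE 0.058, 0.898) and *Ccng1* at -0.01 (SE 0.098, 0.952).

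Among the apoptosis genes, 0 of 9 tested members passed. *Aen* was at -0.29 (SE 0.09, edgeR adjusted p = 0.0545) and was lower in 8 of 9 leukemias. It passed without JW14 (adjusted p = 0.0426) and with 4638 added (0.0331). *Trp53inp1* had an estimate of 0.47 (SE 0.18, adjusted p = 0.0987). Its VEH columns were at 28.5 to 174.5 FPKM (median 96.7) and its DEX columns at 34.9 to 211 (median 162). It was higher in 6 leukemias and lower in JW81, 8633 and JW14, and passed without JW14 (adjusted p = 0.0472). Of the other members not called, *Zfp365* had 0.41 (adjusted p = 0.0887, passing without 5C at 0.0358), *Polk* -0.32 (0.0767, passing without 78A at 0.0380, and at -0.09 with 0.703 in the 4 leukemias without ribosomal RNA) and *Ercc5* 0.17 (0.103, higher in 8 of 9 leukemias and passing without 5C at 0.0301). In the 4 leukemias without ribosomal RNA, *Aen* was at -0.42, *Trp53inp1* at 0.63, *Zfp365* at 0.63 and *Ercc5* at 0.20, with edgeR adjusted p of 0.0825 to 0.200.

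**Figure D4:**
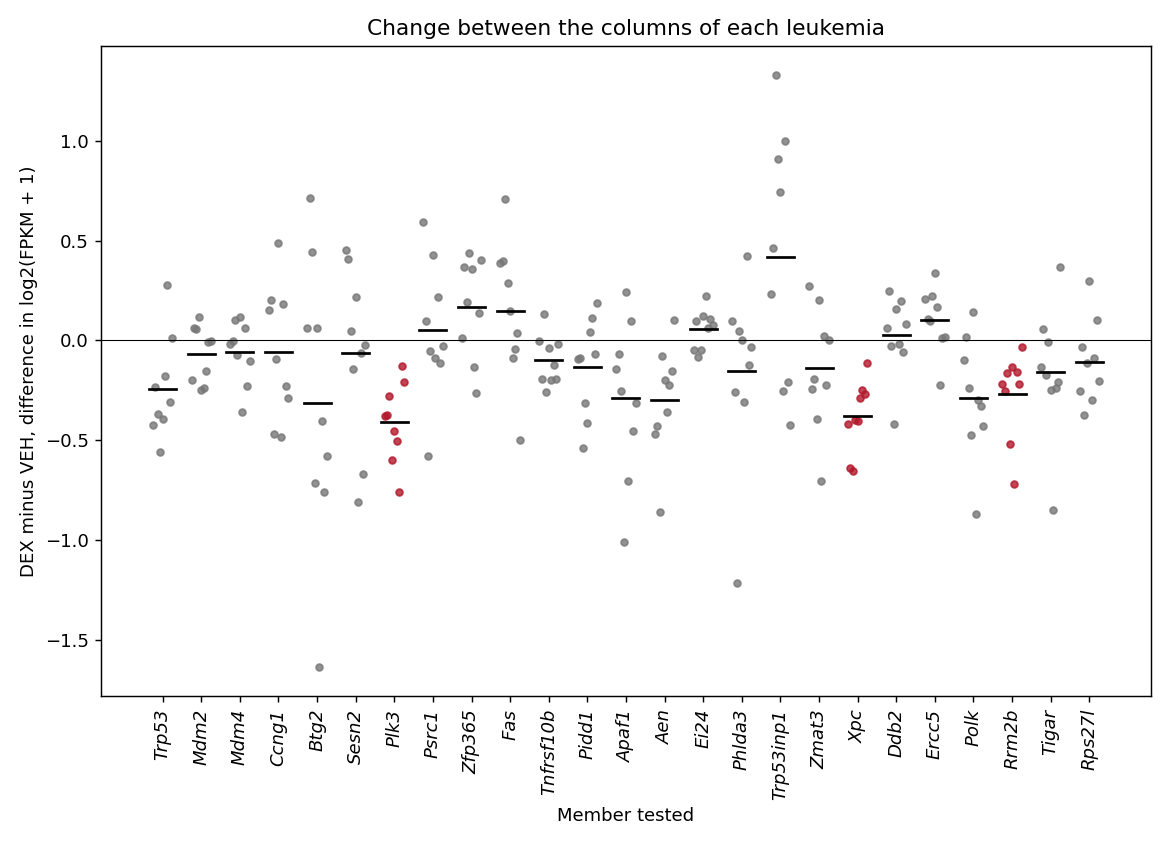
Difference in log2(FPKM + 1) between the DEX and the VEH library of each of the 9 leukemias (points) with their mean (black line) for the 25 members tested. The 3 members past the threshold, *Plk3*, *Xpc* and *Rrm2b* (red), have all 9 points below 0, whereas the points of *Trp53inp1*, *Btg2* and *Fas* lie on both sides of 0.

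The genes around the members were counted in the same fit. Of 16 upstream regulators of p53, all tested, 1 was lower and 0 were higher (6.25% called, against 13.0% of all genes). It was *Atm*, the kinase that signals double-strand breaks to p53, at -0.39 (SE 0.096, edgeR adjusted p = 0.0247, lower in 8 of 9 leukemias). The call on *Atm* was lost without 20M (-0.38, adjusted p = 0.05996), 2M (-0.38, 0.0578), 73A (-0.39, 0.0519), 73M (-0.33, 0.0538) or JW81 (-0.37, 0.05405). It was also lost in the 4 leukemias without ribosomal RNA (-0.32, adjusted p = 0.0718) and with the term for those libraries (-0.25, 0.0527).

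Of 10 further p53 targets, 6 were tested, of which 2 were higher and 0 lower (33.3% called, against 13.0% of all genes). This list and that of the regulators were chosen with earlier results of these data known, so nothing is read from their shares. *Bbc3* (ENSMUSG00000002083, chromosome 7, 16308393 to 16318205), which encodes the BH3-only protein PUMA, was at 0.805 to 5.00 FPKM (median 1.56) in the VEH columns and at 2.69 to 8.72 (median 4.99) in the DEX columns. It was higher in 9 of 9 leukemias, with a log2 change of 1.48 (SE 0.29, edgeR adjusted p = 0.0104), and at 0.94 in the 4 leukemias without ribosomal RNA (adjusted p = 0.0786). *Sesn1*, a relative of *Sesn2*, was at 0.37 (SE 0.10, adjusted p = 0.0391, higher in 6 of 9). This call was lost when any of 20M, 2M, 73A, 73M, 78A or JW81 was left out (0.32 to 0.36, adjusted p = 0.0744 to 0.0947), in the 4 leukemias without ribosomal RNA (0.46, 0.0645) and with the term for those libraries (0.33, 0.123). *Bax*, *Pmaip1*, *Gadd45a* and *Cyfip2* did not pass, and *Cdkn1a*, at a mean of 0.764 FPKM, was not tested.

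**Figure D5:**
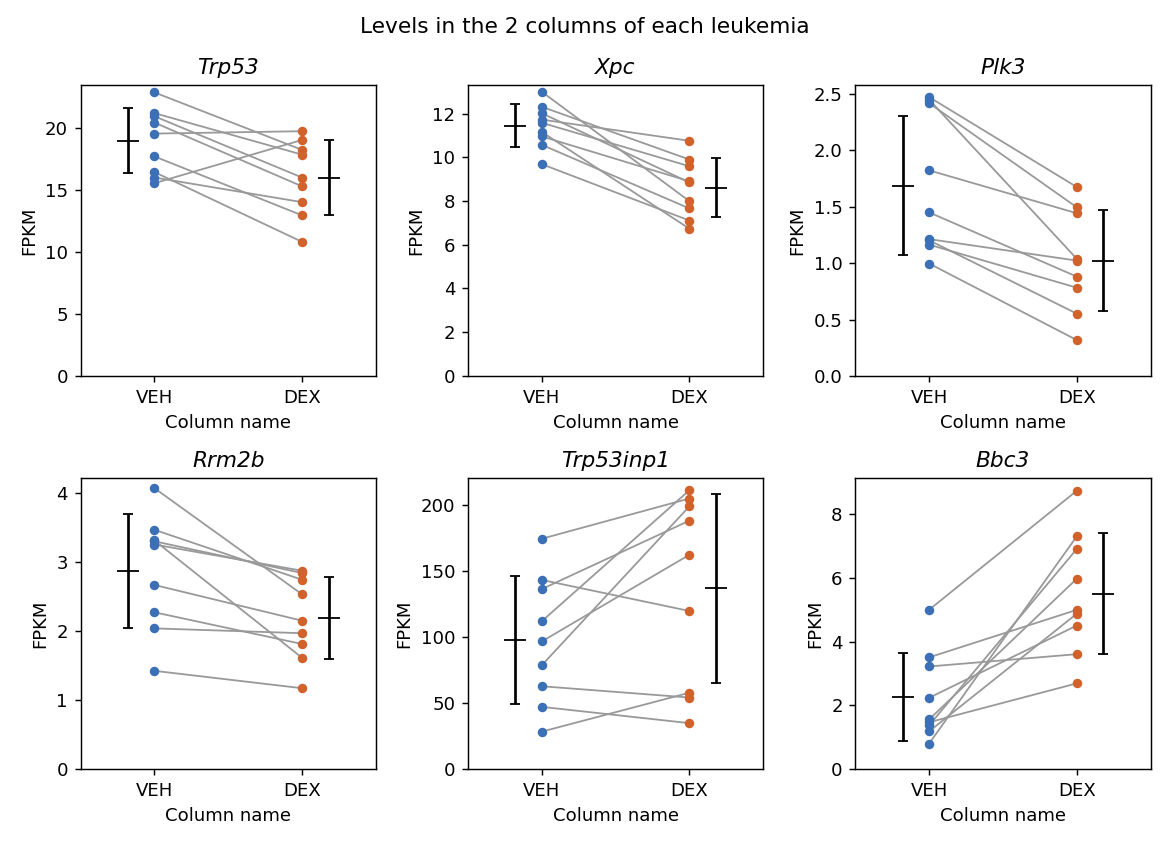
FPKM of *Trp53*, *Xpc*, *Plk3*, *Rrm2b*, *Trp53inp1* and *Bbc3* in the VEH (blue) and DEX (orange) library of each of the 9 leukemias, joined by lines, with mean and SD of each arm in black. All 9 lines fall for *Xpc*, *Plk3* and *Rrm2b* and all 9 rise for *Bbc3*, while the arms overlap in each panel.

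The p53 score was lower in the DEX column in 8 of 9 leukemias, by -0.077 ± 0.093 on average (SD, n = 9). The mean was -0.046 with TMM-scaled FPKM, -0.17 with the median over members in place of the mean, and -0.044 in the 4 leukemias without ribosomal RNA, where it was lower in 3 of 4. The differences were -0.04 in 20M, -0.03 in 2M, -0.02 in 5C, -0.09 in 73A, -0.14 in 73M, -0.11 in 8633, -0.05 in JW14, -0.27 in JW81 and 0.05 in 78A. In 4638 it was 0.06. The largest difference, that of JW81, comes from a leukemia whose DEX library has ribosomal RNA counts. On the same scale the median difference of all genes tested averaged -0.036 over the leukemias, and with TMM-scaled FPKM it was 0.0012.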

How the data were processed

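Libraries of poly(A) RNA (TruSeq kit) were sequenced by the authors, who used Bowtie 2 with the mm10 build for alignment and RSEM for quantification. Their annotation and strand setting are not given in the sources used here. The deposited table holds RSEM expected counts per gene, although it is named for FPKM, and these were rounded to whole numbers for the tests. FPKM were calculated from the counts, the library totals and merged exon lengths of GENCODE M21 (GRCm38), and 1 was added before taking log2.

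The 34 members, the role groups and the lists were chosen with earlier results of these data known. The rule named every member, with values by library for those past a threshold. edgeR 4.0.16 (R 4.3.3, TMM, quasi-likelihood, Benjamini-Hochberg adjustment) was fitted to the 11339 genes that averaged 1 FPKM or more over the 18 libraries, with leukemia and arm as terms. The leukemia is the pair, since both libraries come from 1 tumor. Deviations of the libraries of a leukemia from the arm means correlated at 0.583 to 0.911, and no columns were identical. Whether the libraries of a leukemia come from separate mice is not stated, so p-values measure the spread between these libraries. For the DEX columns of 2M, 73A and 4638 the leukemia, but not the exact sample, could be matched. The *Cdkn2a* slope was fitted to the VEH columns of 8 leukemias. On simulated counts with 200 of 11339 genes changed 4-fold, 99.0% were recovered between arms (5.71% false calls) and 94.5% among leukemias (7.80%). DESeq2 1.42.0 was an alternative. Scores and promoter searches used Python 3.11.15. A floor of 3 counts on 1 kb of exon is 0.0149 to 0.365 FPKM and covers counting error only. One part of the donors' genotype is not reported here.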

Additional observations from a re-analysis of the deposited data

Results flagged for a closer look

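In 62 sets of 9 values (level by leukemia and DEX minus VEH difference by leukemia), the gap between the extreme leukemia and its neighbour was compared with Dixon's critical value of 0.493 times the range. It was exceeded in 5 sets, where about 3.1 are flagged by chance. *Perp* was at a log2(FPKM + 1) of 2.56 in 8633, with the next leukemia at 0.81. *Cdkn2a* was at 3.79 in 8633, with the next at 1.71. *Epha2* was at 1.15 in JW81, with the next at 0.34. The DEX minus VEH difference of *Phlda3* was -1.22 in 73A, with the next at -0.31. That of *Ddb2* was -0.42 in 73M, with the next at -0.06; in these leukemias the myeloid (73A) and the B lineage and erythroid lists (73M) were the highest of the 9, and their part in the differences was not tested.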

How the results depend on the processing

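The number of members called between DEX and VEH columns was 3, with 13.0% of all genes called. It was 5 with DESeq2 (*Plk3*, *Xpc*, *Rrm2b*, *Aen*, *Polk*; 19.1% of all genes), 6 of 34 with no filter (these 5 and *Trp53inp1*; 6.40%) and 0 without leukemia as the replicate block (0.0706%). It was 2 with a term for ribosomal RNA libraries (4.10%), 2 in the 4 leukemias without such libraries (4.19%) and 3 with 4638 added (12.7%). With 1 leukemia left out it was 2 to 6, which was 6 without 5C (18.0%), 5 without JW14 (11.3%) and 2 without 20M, 2M or 73M (5.96%, 6.52% and 7.47%). Without the block, *Xpc*, *Plk3* and *Rrm2b* were at -0.36, -0.68 and -0.34 on the log2 scale with adjusted p of 0.353, 0.754 and 0.874, and *Bbc3*, *Sesn1* and *Atm* at 1.35, 0.35 and -0.39 with 0.189, 0.627 and 0.415. Of 15 alternatives, *Xpc* was called in 14, *Plk3* in 13 and *Rrm2b* in 8. With the ribosomal RNA term *Rrm2b* (0.108), *Sesn1* (0.123) and *Atm* (0.0527) were not called, and with 4638 added *Rrm2b* was not (0.0835). The cause of these changes was not tested.

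Estimates near 0 changed sign. In the 4 leukemias without ribosomal RNA libraries *Mdm2* was at 0.0024, *Mdm4* at 0.034 and *Ccng1* at 0.039, with the ribosomal RNA term *Mdm4* was at 0.025 and *Ccng1* at 0.047, and with 4638 added *Ccng1* was at 0.027. With 1 leukemia left out *Mdm4* was at -0.044 to 0.018 and *Ccng1* at -0.087 to 0.034. None of these passed the threshold.

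The number of members that differed among leukemias was 21 to 24 with 1 leukemia left out (78.7% to 83.8% of all genes), 24 with DESeq2 (86.8%) and with 4638 (87.2%), and 31 of 34 with no filter (47.3%). The count of members against *Cdkn2a* was 0 in every fit run. Of all genes, 11 were called with DESeq2 (0.097%), 1 without 78A (0.00882%) and 0 in the other fits. At an unadjusted p under 0.05 there was 1 member with DESeq2, with no filter and without 73A, 73M or 78A, and there were 2 without JW14. The change of the p53 score was -0.17 with the median over members, -0.046 with TMM scaling, -0.044 in the 4 leukemias without ribosomal RNA libraries (chosen after seeing the data) and -0.093 to -0.052 with 1 leukemia left out. Its r with *Cdkn2a* over 8 leukemias, 0.27, was -0.11 (without 73A) to 0.52 (without JW81), 0.45 in VEH and -0.045 in DEX columns alone. Chosen after seeing the data were the fit among leukemias without the 5 ribosomal RNA libraries and the omission of 8633 from the relations with *Cdkn2a*. In the shallowest library, JW14 DEX, 3 counts on 1 kb of exon are 0.365 FPKM, so low members are least certain there.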
